A study of Mus musculus with 7 samples.

Results

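The RBM genes encode proteins named for an RNA-binding motif, and 34 protein-coding genes of that name lie on mouse chromosomes 1 to 19. They were chosen by symbol (Rbm followed by a number), and each gene was read from its H3K79me2 region with the most counts on average. A region overlapped 30 of the 34 genes, and because Rbm4, Rbm4b and Rbm14 share a region these 30 genes were read from 28 of the 29397 regions in the table. The 4 matching genes on the sex chromosomes were outside the rule.

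Most RBM proteins carry at least 1 RNA recognition motif, a fold that lies against single-stranded RNA, and they act on pre-mRNA splicing, RNA modification, nuclear RNA decay and ribosome assembly. H3K79me2 is dimethylation of lysine 79 of histone H3. It is laid down by DOT1L behind elongating RNA polymerase II, usually from the start of an active gene into its body.

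The mark was measured by chromatin immunoprecipitation and sequencing in macrophages grown from bone marrow of C57BL/6 mice for 7 to 8 days. SGC0946, a small-molecule inhibitor of DOT1L, was present at 1 µM during differentiation in 3 libraries, and its solvent DMSO in 3 others, all described as biological replicates. All cultures received L929-conditioned medium as the source of M-CSF. The shared growth protocol speaks of both WT and KO mice without stating the origin of these cultures, the labels give no age or sex, and the input sample was not used here. The libraries held 2952679 to 3132235 counts with SGC0946 and 16735417 to 19520933 counts with DMSO, so the SGC0946 mean was 17.1% of the DMSO mean (exact 2-sided permutation p = 0.1, the lowest p that 3 libraries a group can give). Regions lay over all 10 macrophage markers checked (among them Csf1r, Spi1, Adgre1 and Cd68) and over 0 of 12 markers of other cell types.

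A pair of measures is used throughout. The percentage kept is the mean SGC0946 count over the mean DMSO count with no scaling, and the share is a region's part of all counts of its library, compared by edgeR's quasi-likelihood test on library totals with Benjamini-Hochberg adjustment over 23367 regions. The labels mention no spike-in. The share therefore compares a region with the rest of its own library, and the percentage kept also moves with sequencing depth, whose part in the loss was not tested.

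A region was present over 88.2% of the RBM genes, against 44.8% of the 20665 coding genes on the same chromosomes. The 4 genes with none were Rbm11, a splicing regulator of brain and testis, Rbm24, a splicing regulator of muscle, and the germ-cell genes Rbm44 and Rbm46. Rbm20, which controls titin splicing in the heart, had a single region of 2040 bp inside the gene (chromosome 19, 53822839 to 53824878) with 22, 13 and 11 counts in SGC0946 libraries, against 65, 45 and 80 in DMSO libraries. It was the sparsest of the family at 31.0 DMSO counts per kb. The SGC0946 level of 7.52 counts per kb was close to the 6.63 ± 1.24 (SD, n = 3) that SGC0946 libraries held over the sparsest 25% of all regions. For scale, DMSO libraries held 21.4 ± 1.91 counts per kb (SD, n = 3) there. These sparsest regions were picked by DMSO counts per kb alone, from the same counts. Background subtraction below takes away their density, in place of the input. Scaling on them or subtracting their density is therefore no independent check.

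Promoter sequences are shown for genes at both ends of this range: Rbm39, which had the most SGC0946 counts per kb of the 28 regions, Rbm25, which kept the most among well-covered genes, 2 of the 3 annotated starts of Rbm47, which had the most DMSO counts, and Rbm11 and Rbm46, which had no region. Each runs from 250 bases before to 50 bases after an annotated start, on the strand of the gene, from RefSeq on GRCm38.p6, the assembly that mm10 names. Capitals mark CG dinucleotides.
Rbm39, chr2:156180189-156180488, minus strand: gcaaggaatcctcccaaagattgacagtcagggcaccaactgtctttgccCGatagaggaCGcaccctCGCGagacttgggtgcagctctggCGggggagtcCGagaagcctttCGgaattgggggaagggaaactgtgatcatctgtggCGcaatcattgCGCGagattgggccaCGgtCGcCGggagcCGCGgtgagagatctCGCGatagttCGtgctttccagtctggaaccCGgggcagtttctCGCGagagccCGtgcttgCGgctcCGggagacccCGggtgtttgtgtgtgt
Rbm25, chr12:83635460-83635759, plus strand: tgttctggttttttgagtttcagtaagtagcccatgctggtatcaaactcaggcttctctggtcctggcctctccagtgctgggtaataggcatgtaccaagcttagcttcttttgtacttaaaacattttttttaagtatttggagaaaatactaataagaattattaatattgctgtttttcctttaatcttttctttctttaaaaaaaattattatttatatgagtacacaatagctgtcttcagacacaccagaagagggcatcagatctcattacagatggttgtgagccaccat
Rbm47, upstream start, chr5:66151905-66152204, minus strand: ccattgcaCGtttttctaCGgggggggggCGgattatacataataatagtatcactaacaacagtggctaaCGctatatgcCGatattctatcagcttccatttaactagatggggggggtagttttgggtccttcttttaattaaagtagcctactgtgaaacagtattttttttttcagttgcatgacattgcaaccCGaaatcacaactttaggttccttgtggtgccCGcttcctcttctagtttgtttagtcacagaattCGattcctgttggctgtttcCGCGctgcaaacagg
Rbm47, internal start, chr5:66098130-66098429, minus strand: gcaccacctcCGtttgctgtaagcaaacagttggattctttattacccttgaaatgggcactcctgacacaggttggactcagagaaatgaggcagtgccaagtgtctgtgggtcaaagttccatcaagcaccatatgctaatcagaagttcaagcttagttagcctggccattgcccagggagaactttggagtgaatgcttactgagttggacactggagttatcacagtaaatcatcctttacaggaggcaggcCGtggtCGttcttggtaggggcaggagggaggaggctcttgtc
Rbm11, chr16:75592641-75592940, plus strand: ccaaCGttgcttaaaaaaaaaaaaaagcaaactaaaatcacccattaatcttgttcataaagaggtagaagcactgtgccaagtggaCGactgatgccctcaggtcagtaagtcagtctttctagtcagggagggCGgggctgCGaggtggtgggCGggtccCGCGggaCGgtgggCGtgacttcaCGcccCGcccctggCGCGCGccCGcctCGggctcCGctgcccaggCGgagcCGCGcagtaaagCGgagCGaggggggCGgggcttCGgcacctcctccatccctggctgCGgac
Rbm46, chr3:82876434-82876733, minus strand: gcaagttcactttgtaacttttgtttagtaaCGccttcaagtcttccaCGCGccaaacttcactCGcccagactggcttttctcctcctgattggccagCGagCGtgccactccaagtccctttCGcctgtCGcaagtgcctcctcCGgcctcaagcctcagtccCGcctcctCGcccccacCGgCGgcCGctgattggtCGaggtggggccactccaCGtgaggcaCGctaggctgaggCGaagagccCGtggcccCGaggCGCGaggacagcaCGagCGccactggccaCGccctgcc
The window of Rbm39 held 25 CG dinucleotides, and so did those of Rbm11 and Rbm46. The windows of Rbm47 held 10 at the upstream and 3 at the internal start, and that of Rbm25 held 0. The gene span of Rbm25 begins upstream of this start, at 83632208, and its region began further upstream, at 83631341. Across the family, 27 of 34 genes had 32 such windows available. Of the 25 windows whose start lay in a region, 23 held at least 10 CG dinucleotides. Over all 32851 windows, not restricted to starts in a region, 43.5% did. Member windows whose start lay outside a region held from 11 (Rbm43) to 32 (Rbm4b). Rbm11 and Rbm46, with no region, thus held as many CG dinucleotides in this window as Rbm39.

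Most regions reached an annotated start. Of the 24 members that had both a region and an annotated start, 20 had a start inside the region. The regions of Rbm18 and Rbm15 began 120 and 138 bp downstream of the start, that of Rbm38 began 2516 bp downstream, and the region shared by Rbm4b covered only the end of that gene. How far the region ran on differed widely. It stopped 1900 bp after the start of Rbm19, a gene of 82459 bp, and 4297 bp after the start of Rbm28, a gene of 41152 bp, and neither gene had a further region. It ran 14960 bp into Rbm33 and 20168 bp into Rbm6, genes of 102409 and 99800 bp that had smaller regions beyond it. In Rbm39 it reached 31684 bp and covered 96.0% of the gene.

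**Figure D1:**
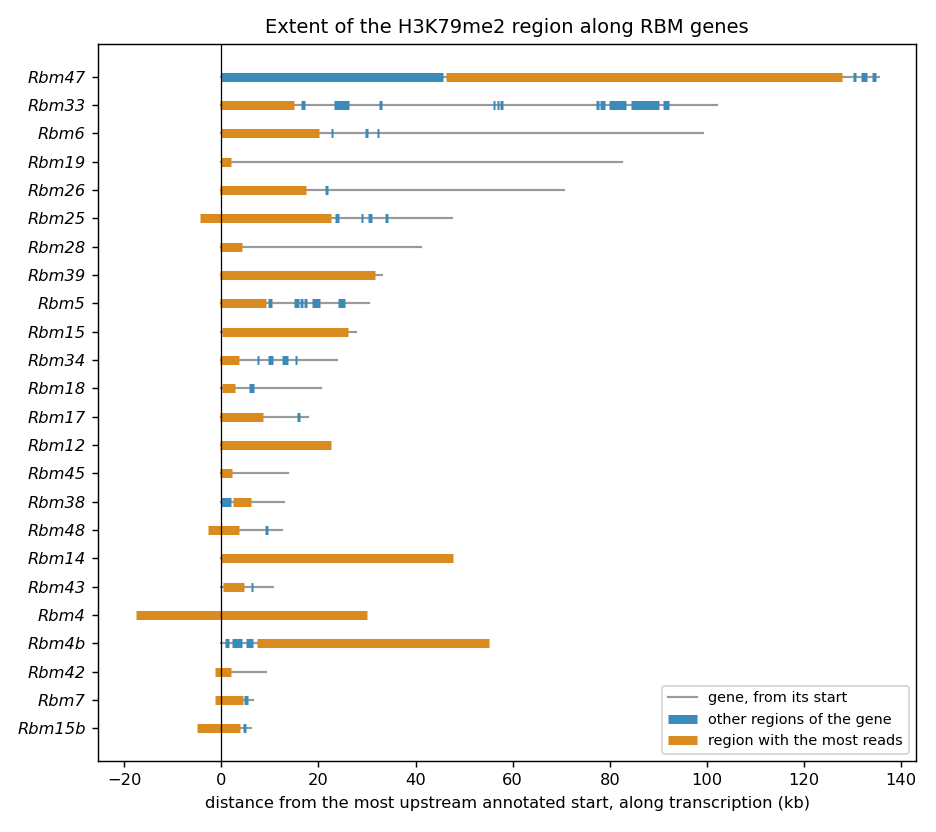
Extent of H3K79me2 regions in the 24 RBM genes with an annotated start and a region, as distance in kb from the most upstream annotated start in the direction of transcription. Grey lines are gene spans, orange bars the region with the most reads and blue bars the other regions of the same gene; the long bars of Rbm4, Rbm4b and Rbm14 are the same region.

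With SGC0946 every region of the family lost most of its counts. All 30 members were called lower on unscaled counts (edgeR quasi-likelihood test, adjusted p from 1.8e-168 for Rbm47 to 1.4e-14 for Rbm20), against 99.9% of coding genes called lower and 0.0226% called higher. In all 28 regions each SGC0946 library lay below each DMSO library, as in 99.3% of coding-gene regions. The percentage kept ran from 9.75% for Rbm12b2 to 24.2% for Rbm20 with a median of 14.1%, and the median over 8836 coding genes was 13.9%, with the middle 50% between 12.4% and 16.8%.

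**Figure D2:**
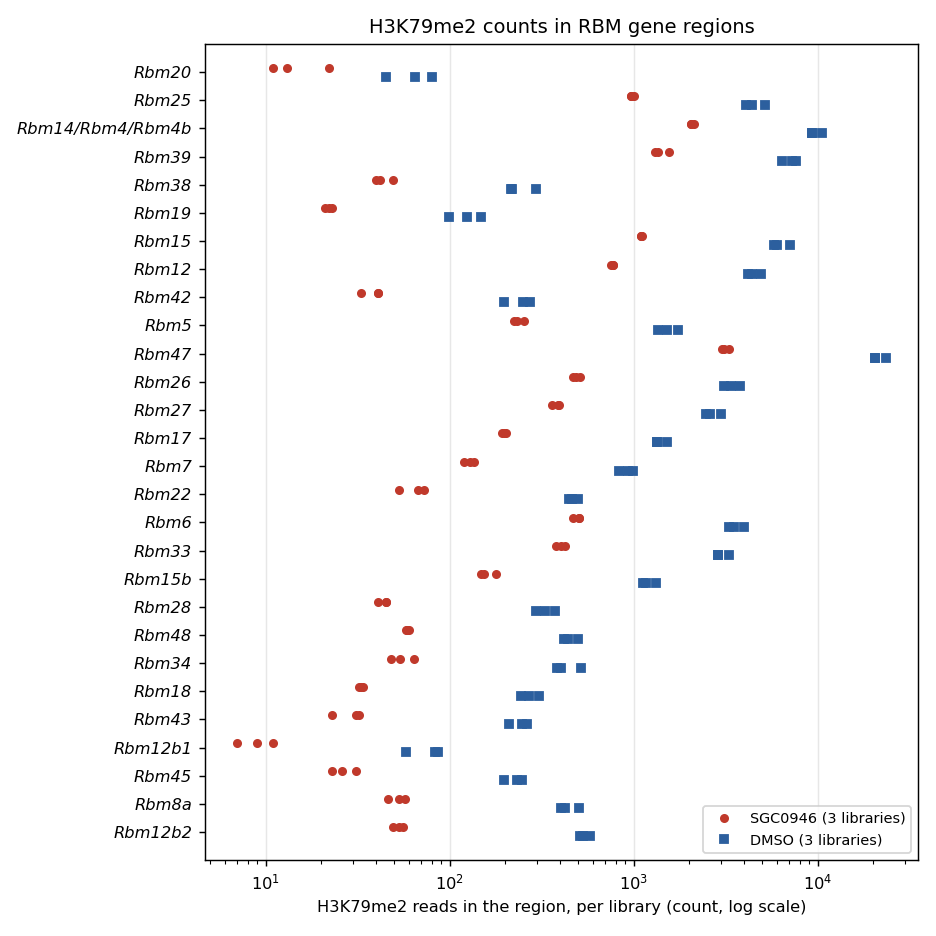
H3K79me2 read counts per library (log axis) in the 28 regions of 30 RBM genes, ordered by the change of library share. Red circles are SGC0946 libraries and blue squares DMSO libraries; the groups do not overlap in any region.

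In share most members fell, as did most coding genes. On library totals 5 members rose (9.91% of coding genes did), 17 fell (51.1% of coding genes) and 8 did not pass, and the 5 that rose stand on 3 regions. Among coding genes averaging 50 counts or more, which 28 members do, 9.98% rose and 58.3% fell. The median log2 change was -0.27 over members and -0.29 over coding genes. CPM values of the groups did not overlap for 23 of 30 members, against 69.6% of coding genes. The 28 regions together held 0.414%, 0.408% and 0.417% of the counts in SGC0946 libraries, and 0.423%, 0.431% and 0.426% in DMSO libraries. Rises made up 22.7% of the members' calls on library totals, 41.7% with TMM factors (5 higher, 7 lower), 55.6% with DESeq2 size factors (5 and 4) and 62.5% with the DESeq2 Wald test (5 and 3), while with scaling on the sparsest 25% of regions 0 rose and 29 fell. The 5 rises thus stayed under the first 3 alternatives, and of the 17 falls 7, 4 and 3 were left. Rises also made up a growing part of the calls over all coding genes, at 16.2%, 23.9%, 24.3% and 31.9%. Of all coding genes 37.4%, 34.6% and 26.3% fell under these first 3 alternatives. With scaling on the sparsest regions 88.8% of coding genes fell and 0.901% rose. Relative to coding genes, the median of the family lay 0.018 above theirs on library totals, 0.016 with TMM factors, 0.035 with scaling on the sparsest regions and 0.29 after subtraction of the density of those regions. These alternatives moved the coding-gene median itself to -0.19, -1.14 and -0.68. With all regions of a gene summed the family lay below the coding-gene median (difference -0.014). Without SGC0946 replicate 1, 11 members were called lower in place of 17, and 44.2% of coding genes in place of 51.1%.

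**Figure D3:**
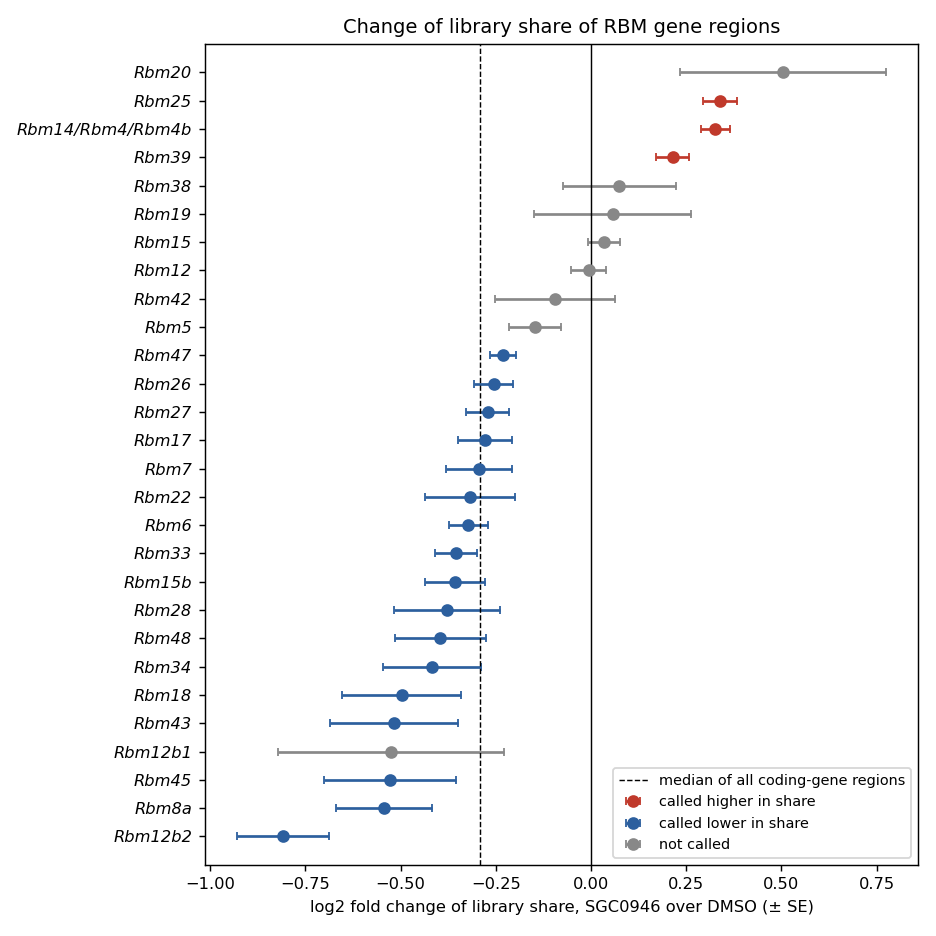
Log2 fold change of library share, SGC0946 over DMSO, with its standard error, for the 28 regions of 30 RBM genes. Rbm25, Rbm39 and the region of Rbm4, Rbm4b and Rbm14 were called higher, Rbm20 lies highest at 0.50 with a wide error and no call, and Rbm12b2 lies lowest at -0.81; the dashed line is the coding-gene median of -0.29.

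Among splicing regulators, Rbm25, a partner of the U1 particle in alternative splicing (chromosome 12, 83631341 to 83658319), had 1007, 971 and 971 counts in SGC0946 libraries, against 4107, 4423 and 5156 in DMSO libraries. It kept 21.5% of its DMSO count. The rise in share was log2 0.34 ± 0.045 (SE, edgeR adjusted p = 2.4e-09). Rbm39, a relative of the splicing factor U2AF that also acts as a transcriptional coactivator (chromosome 2, 156148554 to 156180443), had 1556, 1309 and 1355 counts with SGC0946, against 6442, 7224 and 7611 with DMSO. It kept 19.8%, with a rise in share of log2 0.21 ± 0.044 (adjusted p = 4.7e-05). Both genes stood above the coding-gene median, by 0.63 and 0.51, although scaling on the sparsest regions turned both rises into falls (log2 -0.49 and -0.61). After background subtraction the rise of Rbm39 was 0.33. In neither gene did the groups overlap.

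Rbm4 and Rbm4b, close paralogs that regulate splicing and translation, lie beside Rbm14, which encodes a paraspeckle protein and coactivator. A single region of 47704 bp covered Rbm4 and Rbm14 in full and the last 2000 bp of Rbm4b (chromosome 19, 4763947 to 4811650). It held 2134, 2063 and 2059 counts in SGC0946 libraries, against 9294, 9289 and 10627 in DMSO libraries, and kept 21.4%. The rise in share was log2 0.33 ± 0.038 (edgeR adjusted p = 3.5e-11), and scaling on the sparsest regions turned it into a fall (log2 -0.50). These counts cannot be divided among the 3 genes and the gene model Gm21992 that the region also overlaps, and reads mapping to both paralogs may have been assigned to either. The other Rbm4b regions were sparse, and the densest of them had 54.7 DMSO counts per kb. None of them passed in share. Their log2 changes were -0.14, -0.33 and 0.57 (edgeR adjusted p = 0.740, 0.432 and 0.303). The rise counted for Rbm4b thus rests on the shared region.

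Of the other 6 splicing genes 4 fell in share and 2 did not pass, beside falls in 51.1% of coding genes (58.3% of those averaging 50 counts or more). Rbm5, a regulator of apoptosis gene splicing, had 253, 225 and 233 counts with SGC0946, against 1362, 1514 and 1738 with DMSO (15.4% kept, adjusted p = 0.104 for its share, and 0.0189 without DMSO replicate 1). Its neighbour and relative Rbm6 had 506, 503 and 466, against 3292, 3516 and 3994 (13.7% kept), and its share changed by log2 -0.32 (adjusted p = 3.1e-07, and 0.0509 with DESeq2 size factors). Rbm17, which takes part in 3′ splice site recognition, kept 14.1%, Rbm22, a component of the catalytic spliceosome, 13.7%, and Rbm48, a factor of minor intron splicing, 13.0%. All 3 fell in share, with log2 changes of -0.28, -0.32 and -0.40, but TMM factors ended each call (adjusted p = 0.0937, 0.183 and 0.0575). The call of Rbm22 was also lost without SGC0946 replicate 1 or 3 (0.0998 and 0.302) and that of Rbm48 without SGC0946 replicate 1 (0.0533). After background subtraction the changes of Rbm22 and Rbm48 were -0.61 and -1.57. Rbm42, which interacts with hnRNP K, kept 15.97% and did not pass (adjusted p = 0.731).

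Of the 7 members that serve in larger RNA complexes 6 fell in share and 1 did not pass, beside falls in 51.1% of coding genes. With TMM factors 3 fell (37.4% of coding genes) and with the DESeq2 Wald test 1 did (26.3%). Rbm8a encodes Y14, a core protein of the exon junction complex that marks spliced mRNA (chromosome 3, 96628260 to 96633064). It had 53, 46 and 57 counts in SGC0946 libraries, against 404, 422 and 507 in DMSO libraries, and kept 11.7%. The log2 change of share was -0.54 ± 0.13 (edgeR adjusted p = 0.00031, and 0.0506 with the DESeq2 Wald test), and -1.33 after background subtraction. Rbm7, the RNA-binding subunit of the nuclear exosome targeting complex, had 129, 136 and 119 counts, against 834, 929 and 995, and kept 13.9%. It fell in share with a log2 change of -0.29 (adjusted p = 0.0052, and 0.109 with TMM factors). That region also overlaps the gene model Gm5617.

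Rbm15 and Rbm15b are paralogs that guide the m6A methyltransferase to RNA. Rbm15 (chromosome 3, 107307201 to 107333151, overlapping Slc16a4 as well) had 1107, 1096 and 1102 counts with SGC0946, against 5830, 6046 and 7041 with DMSO. It kept 17.5%, with no call for its share (log2 0.03, adjusted p = 0.622, and 0.0105 with log2 0.13 after background subtraction), and its 243 DMSO counts per kb were second among the 28 regions. Rbm15b (chromosome 9, 106883291 to 106892146, overlapping Manf) had 154, 148 and 178 counts, against 1120, 1165 and 1316, and kept 13.3%. Its share had a log2 change of -0.36 (edgeR adjusted p = 0.00016, and 0.190 with the DESeq2 Wald test), and -0.56 after background subtraction.

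Rbm26 and Rbm27, which connect nuclear polyadenylated RNA to the exosome, had close values. Rbm26 had 487, 512 and 470 counts with SGC0946, against 3110, 3395 and 3772 with DMSO, and Rbm27 had 395, 358 and 387, against 2479, 2611 and 2973. They kept 14.3% and 14.1%, at 193 and 195 DMSO counts per kb. Both shares fell, with log2 changes of -0.26 and -0.27 (edgeR adjusted p = 4.6e-05 and 5.0e-05), and both calls were lost with TMM factors (adjusted p = 0.105 and 0.0772). Rbm33, linked to RNA export, kept 13.4%, and its share had a log2 change of -0.35 (adjusted p = 1.4e-07).

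Ratios between related members within a library need no scaling between libraries. Of 6 pairs compared, the groups did not overlap for Rbm15 over Rbm15b and for Rbm5 over Rbm6. How often ratios of other gene pairs separate was not computed, so this count cannot be called particular to the family. The log2 ratio of Rbm15 to Rbm15b was 2.78 ± 0.14 in SGC0946 libraries and 2.39 ± 0.024 in DMSO libraries (SD, n = 3 each, exact 2-sided permutation p = 0.1, the smallest possible, and 0.24 adjusted over the pairs). That of Rbm5 to Rbm6 was -1.05 ± 0.093 with SGC0946 and -1.23 ± 0.038 with DMSO (SD, n = 3 each, same exact p). For Rbm26 over Rbm27 the ratios were 0.37 ± 0.13 and 0.35 ± 0.026 (SD, n = 3 each, exact p = 1). The ratios of Rbm25 to Rbm39, Rbm7 to Rbm8a and Rbm12b1 to Rbm12b2 overlapped between the groups (exact p = 0.2 for each).

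Rbm47, a cofactor of the mRNA-editing enzyme Apobec1, was the most heavily marked member. Its main region of 81677 bp (chromosome 5, 66024056 to 66105732) held 3302, 3020 and 3098 counts in SGC0946 libraries, against 20596, 20584 and 23559 in DMSO libraries. At 264 DMSO counts per kb it was the densest of the 28 regions and denser than 92.4% of coding-gene regions. It kept 14.6%, with a log2 change of share of -0.23 ± 0.035 (edgeR adjusted p = 9.3e-08, and 0.230 with TMM factors). A further region of 45683 bp (66106291 to 66151973), which holds the upstream 2 of the 3 annotated starts, was denser still at 340 DMSO counts per kb. It had 2632, 2405 and 2466 counts, against 14409, 15035 and 17114, kept 16.1% and did not pass (adjusted p = 0.0792). With its smaller regions, 95.8% of the gene was covered.

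Rbm38, a p53-induced gene whose product binds p21 mRNA, also had a pair of sizeable regions. The one standing for the gene, in the gene body, had 42, 49 and 40 counts with SGC0946, against 219, 216 and 295 with DMSO (17.9% kept, adjusted p = 0.783). The other covers the start (chromosome 2, 173021826 to 173023933) and had 47, 53 and 41 counts, against 169, 150 and 221. It kept 26.1%, and the log2 change of its share was 0.62 ± 0.16 (edgeR adjusted p = 0.0011). With both regions summed the change was 0.33 (adjusted p = 0.0139), so the call for Rbm38 depended on the choice of region. Without SGC0946 replicate 2 the value of the body region was -0.02.

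Regions of a gene were compared within libraries for the 4 members with at least 2 regions averaging 100 counts or more, a comparison chosen after the values were seen. The log2 ratio of the body to the start region of Rbm38 was -0.10 ± 0.063 with SGC0946 and 0.44 ± 0.078 with DMSO. For Rbm12b2 the ratio of the region with most reads to the next was -0.60 ± 0.18 with SGC0946 and 0.18 ± 0.037 with DMSO, and for Rbm47 it was 0.33 ± 0.001 and 0.48 ± 0.034 (SD, n = 3 each, exact 2-sided permutation p = 0.1 for each of these 3 genes, the smallest possible, and 0.133 adjusted over the 4). The groups did not overlap for these 3 genes, and for Rbm33 they did (exact p = 0.4). How often regions of other genes separate in this way was not computed.

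**Figure D4:**
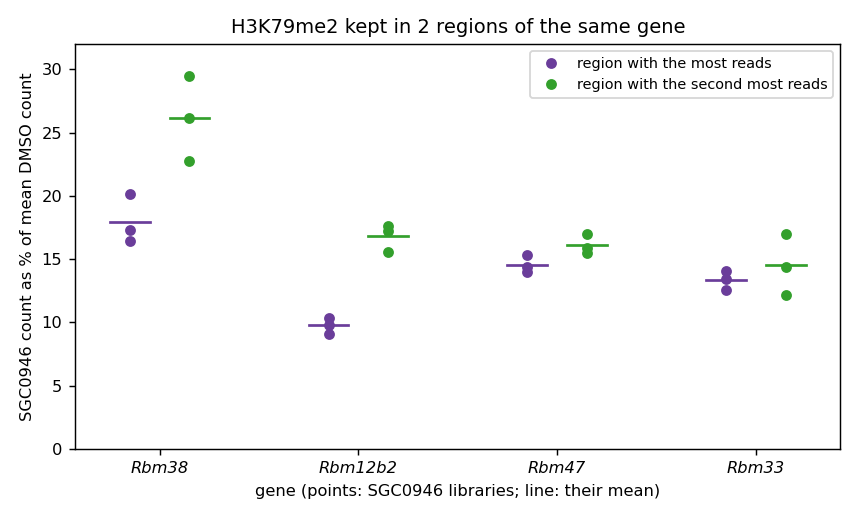
SGC0946 counts of each library as a percentage of the mean DMSO count in the region with the most reads (purple) and the region with the second most (green) of 4 RBM genes; short lines are means of 3 libraries. The second region kept more in Rbm38 (26.1% against 17.9%) and Rbm12b2 (16.8% against 9.75%), while the libraries overlap in Rbm33.

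Nucleolar members carried short regions of 64.4 to 111 DMSO counts per kb, under the coding-gene median of 113. Rbm28, a relative of the yeast ribosome assembly factor Nop4, kept 13.1%, with a log2 change of share of -0.38 (edgeR adjusted p = 0.0298). That call was lost with a replicate block (0.0534), with TMM factors (0.138) and without SGC0946 replicate 1, 2 or 3 (0.110, 0.0618 and 0.112). Rbm34, another nucleolar protein, kept 12.7%, with a log2 change of -0.42 (adjusted p = 0.0076, 0.0510 with TMM factors and 0.155 without SGC0946 replicate 1). After background subtraction the changes of Rbm28 and Rbm34 were -1.31 and -0.83, and with all regions of a gene summed that of Rbm34 was -0.27. Rbm19, which acts in pre-rRNA processing, had 22, 23 and 21 counts with SGC0946, against 125, 99 and 148 with DMSO, and did not pass (17.7% kept, adjusted p = 0.886).

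Of the 6 less characterised members 4 fell in share and 2 did not pass, beside falls in 51.1% of coding genes. With TMM factors 3 fell (37.4% of coding genes) and with the DESeq2 Wald test 1 did (26.3%). The member that kept the least of the family was Rbm12b2. Rbm12b2 (chromosome 4, 12094642 to 12101744) had 49, 53 and 56 counts in SGC0946 libraries, against 512, 530 and 579 in DMSO libraries. It kept 9.75%, with a log2 change of share of -0.81 ± 0.12 (edgeR adjusted p = 6.0e-08), and 0.758% of coding genes had a lower one. With all its regions summed the change was -0.38. Its SGC0946 level of 7.41 counts per kb lay within the spread of the sparsest regions (6.63 ± 1.24, SD, n = 3), and background subtraction left 0 counts in SGC0946 replicates 1 and 2. Its second region (12089459 to 12092834), which is denser, had 82, 84 and 74 counts, against 438, 473 and 519, and did not pass in share (16.8% kept, log2 -0.02, adjusted p = 0.909). Its neighbour and paralog Rbm12b1 had 7, 11 and 9 counts, against 58, 87 and 83, and did not pass (11.8% kept, adjusted p = 0.203). At 4.76 SGC0946 counts per kb Rbm12b1 lay at the level of the sparsest regions. Reads shared by these paralogs may have been assigned to either.

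Rbm45, an RNA-binding protein of the nervous system, had 26, 31 and 23 counts with SGC0946, against 197, 231 and 248 with DMSO. Rbm43 had 31, 32 and 23 counts, against 248, 210 and 263. Rbm18, whose region also overlaps Mrrf, had 33, 32 and 34 counts, against 270, 244 and 305. These 3 genes kept 11.8%, 11.9% and 12.1% of their counts. All fell in share, with log2 changes of -0.53, -0.52 and -0.50 (edgeR adjusted p = 0.0132, 0.0129 and 0.0091). The call of Rbm45 was lost with TMM factors (0.0502) and those of Rbm43 and Rbm18 with DESeq2 size factors (0.0547 and 0.0513). Without SGC0946 replicate 1 the calls of Rbm45 and Rbm18 were lost (0.0877 and 0.0614), and without SGC0946 replicate 3 those of Rbm45 and Rbm43 (0.0939 and 0.132). After background subtraction the changes of Rbm45 and Rbm18 were -1.26 and -1.03. Rbm43, at 6.57 SGC0946 counts per kb, lay at the level of the sparsest regions, and the subtraction left it 0 counts in each SGC0946 library. Rbm12, whose region of 22814 bp also covers part of Cpne1, kept 17.0% and did not pass (log2 -0.01, adjusted p = 0.947).

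Read density and the change of share were weakly related within the family. Across the 28 regions, which share the same 6 libraries, the log2 change of share had a Spearman rho of 0.34 with DMSO counts per kb and 0.37 with region length, and across coding-gene regions rho with density was -0.054 over all of them and 0.19 over those averaging 50 counts or more. Members with at least 150 DMSO counts per kb (13 regions) had a median log2 change of -0.23, and the 2993 coding-gene regions of that density -0.20. The densest member, Rbm47, kept less than Rbm25 at 169 counts per kb.

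**Figure D5:**
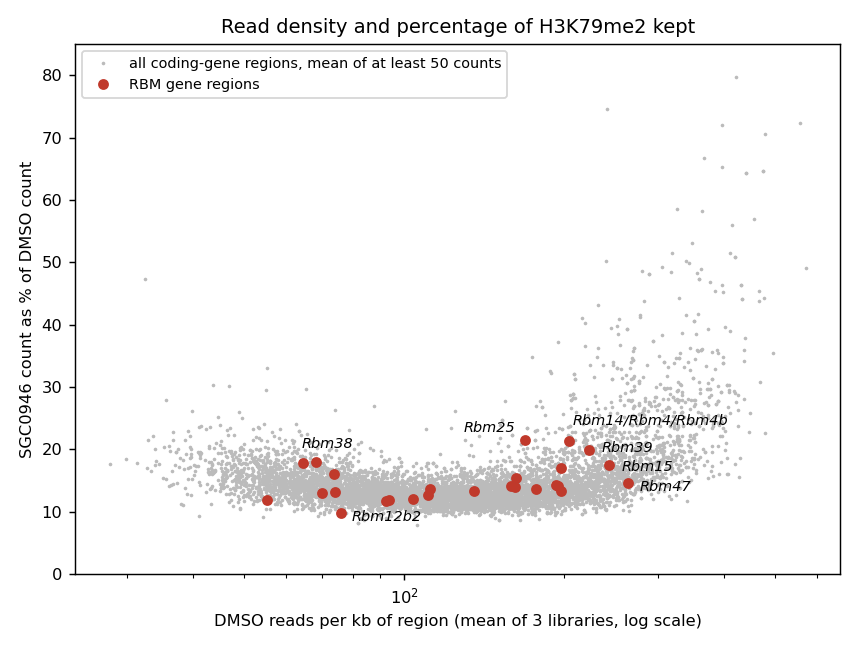
SGC0946 count as a percentage of the DMSO count against DMSO reads per kb (log axis) for the 26 RBM regions (red) and all 7738 coding-gene regions (grey) averaging 50 counts or more. The RBM regions lie between 9.75% and 21.5%, while some grey points above 200 reads per kb reach far higher percentages.

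Genes of the complexes in which RBM proteins work were read the same way, as counts beside the coding-gene background of 9.91% higher and 51.1% lower. Of 9 paraspeckle genes, the compartment of Rbm14, 5 rose and 2 fell, with a median log2 share of 0.28. Ewsr1 kept 48.2% (log2 1.496, edgeR adjusted p = 3.9e-44), in a region it shares with another coding gene. With scaling on the sparsest regions 2 of the 9 rose and 4 fell. Nudt21 and Taf15 kept 13.4% and 15.0% and fell, with log2 changes of -0.35 and -0.18, but 1 fall was left with TMM factors and 0 with the DESeq2 Wald test, beside 5 rises under both. Of 15 genes of 3′ splice site recognition, 4 rose and 7 fell (median log2 -0.19). They ran from Sf3b1, which contacts the branch point, with 38.6% kept (log2 1.18, adjusted p = 4.0e-36), to Cherp with 10.6% (log2 -0.69). The other rises were Dhx15, U2af2 and U2af1, at 25.4%, 23.2% and 19.7% kept. TMM factors left 4 rises and 4 falls, the DESeq2 Wald test 4 and 2, and scaling on the sparsest regions 0 and 12. Under these settings in turn 11.7%, 12.4% and 0.901% of coding genes rose, and 37.4%, 26.3% and 88.8% fell.

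In the exon junction complex and its decay partners 2 of 15 genes rose and 6 fell (median log2 -0.13). Smg1, the kinase of nonsense-mediated decay, kept 22.4% and Rnps1 20.5%, and these were the rises, while Upf2 kept 11.8%. Of the core partners of Rbm8a, Magoh kept 13.1% and Eif4a3 17.6%. Among 11 m6A writer and reader genes with a region 2 rose and 7 fell (median log2 -0.31). Wtap, which anchors the writer complex, kept 33.5% (log2 0.97, edgeR adjusted p = 9.7e-31) and Ythdc1 20.8%, whereas Virma kept 11.3%. Of 13 nuclear exosome genes, the machinery of Rbm7, 7 fell (median log2 -0.26). They ran from Exosc2, the single positive value, with 17.9% kept (log2 0.07, adjusted p = 0.856), to Exosc3 with 10.9% (log2 -0.64). With scaling on the sparsest regions no gene of these 3 lists kept a rise, and 15 of 15 exon junction, 10 of 11 m6A and 13 of 13 exosome genes fell, beside 88.8% of coding genes. With the DESeq2 Wald test the falls were 3, 4 and 3, beside 26.3% of coding genes.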

How the data were processed

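Counts in the deposited table are whole-number reads per region for 3 SGC0946 and 3 DMSO libraries, with no scaling visible. The submitters' processing notes list R 3.6.3, HOMER 4.11.1, ChIPseeker 1.20.0, HISAT2, bedtools 2.27.0 and the build mm10. The sources used here do not give which of these called or counted the regions, whether on pooled samples, or how duplicate and multi-mapping reads were treated, and each could change the counts. Region starts were read as zero-based and are given 1-based.

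Regions were joined to RefSeq gene spans of GRCm38.p6 (Python 3.11.15, pandas 2.3.3) by any overlap; exons were not separated. Starts and promoters came from a RefSeq table on the same assembly. The whole table went through edgeR 4.0.16 under R 4.3.3 (quasi-likelihood test, filterByExpr, adjusted p under 0.05), with library totals and all factors at 1 for shares, and with equal library sizes for unscaled counts. DESeq2 1.42.0 was an alternative. Within-library ratios added 0.5 to each count. Each standard error is the log2 change over the root of its F statistic. Chi-square per degree of freedom between libraries of a group lay between 1.32 and 2.38, so no pair agreed within sampling noise. The p-values measure the spread between these libraries, which edgeR pools over regions. Those of edgeR on unscaled counts also carry the fall in totals that all regions share. The labels do not say which libraries share an animal. In simulated data for this comparison (23973 regions tested) the test recovered 24% of 1.25-fold, 46% of 1.5-fold, 80% of 2-fold and 98% of 4-fold changes, 50 regions each, with 7 false calls. The simulation gave every region the same dispersion of 0.002. Its changed regions were drawn from the whole series above a count minimum, so these rates do not describe RBM regions alone.

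The members, gene lists and tests were chosen with earlier results of these data known. Every member with a region is named; counts per library are given for the 5 highest and 5 lowest changes of share among those averaging 50 counts or more, for the paired genes, for the 3 densest and 2 sparsest members, and after seeing the values for Rbm38 and Rbm19. Partner genes named are the highest and lowest of each list, calls against its majority, and 2 partners of Rbm8a chosen after their values were seen. Partner lists were also counted under each other scaling. The pair of Rbm4 and Rbm4b was not computed because they share a region. Some overlaps of member regions with other genes are not reported here.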

Additional observations from a re-analysis of the deposited data

How the results depend on the processing

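The 30 falls of unscaled counts held under every alternative run for them, and the 5 rises of share under each setting except scaling on the sparsest 25% of regions (0 rises, 29 falls) and restriction to regions that overlap no other coding gene, which by construction leaves 21 members with 2 rises. The 17 falls of share became 7 with TMM factors, 4 with DESeq2 size factors and 3 with the DESeq2 Wald test. Coding genes called lower went from 51.1% to 37.4%, 34.6% and 26.3%. With 1 library left out the members' falls lay between 11 and 18, and 43.7% to 57.4% of coding genes fell. The cause was not tested. The median percentage kept was 11.3% after background subtraction (29 members remained tested) and between 13.6% and 14.8% without single libraries, against 14.1%. The titles use the same replicate numbers in both groups. Deviations from the group mean correlated at 0.01, -0.114 and -0.014 between same-numbered libraries over 11055 regions. These values cannot show whether such libraries share an animal. A fit with a replicate block gave 5 rises and 16 falls (9.65% and 49.1% of coding genes).

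Some directions turned. With scaling on the sparsest regions the log2 shares were -0.35 for Rbm20, -0.49 for Rbm25, -0.50 for Rbm4, Rbm4b and Rbm14, -0.61 for Rbm39, -0.78 for Rbm38 and -0.79 for Rbm19 and Rbm15. After background subtraction they were -0.084 for Rbm20, -0.29 for Rbm38, -0.43 for Rbm19 and 0.051 for Rbm12. Rbm12 and Rbm42 came to 0.099 and 0.0078 with TMM factors, 0.107 and 0.013 with DESeq2 size factors, and 0.107 and 0.019 with the DESeq2 Wald test. Without single libraries Rbm12 ran from -0.029 to 0.012, Rbm38 from -0.022 to 0.16, Rbm19 from -0.052 to 0.13 and the change of the Rbm26 to Rbm27 ratio from -0.059 to 0.059. That of Rbm12b1 to Rbm12b2 was -0.090 with all regions of a gene summed, against 0.34. Depth limits Rbm12b1, Rbm20 and Rbm19 most: with under 25 counts in each SGC0946 library, their standard errors were 0.30, 0.27 and 0.21.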
